A study of Arabidopsis thaliana with 18 samples.

Results

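JMT (AT1G19640, on chromosome 1) and AT5G38780 (on chromosome 5) are Arabidopsis thaliana genes of the SABATH family of methyltransferases. They were taken as the 2 genes, each with 1 probe set, that the platform's gene table assigns to these names, among 13513 probe sets that it assigns to 1 gene and 22746 probe sets tested. Both were chosen by their measured values: JMT stood among the probe sets with the largest falls from 8-9 to 12-13 days after flower opening in both accessions, and AT5G38780 among those highest in C24 over Col-0 at 12-13 days. Those differences, and every contrast that shares their arrays, are therefore given as descriptions without a test. The comparison of the accessions at 10-11 days used none of those arrays and is the one that carries a p-value for the 2 genes. However, JMT also ranked 3 from the lowest called probe set with 1 gene from 8-9 to 10-11 days in each accession. AT5G38780 ranked 2 from the highest for the accession difference in the change from 10-11 to 12-13 days. Those contrasts include the 10-11 day arrays, so the p-values at 10-11 days cannot be taken as independent of the choice of genes. They describe each difference against its spread and are no independent test.

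SABATH enzymes transfer a methyl group from S-adenosylmethionine to the carboxyl group, or in some members the nitrogen, of small plant metabolites. JMT, jasmonic acid carboxyl methyltransferase, makes the volatile methyl jasmonate from jasmonic acid, a lipid-derived hormone of wounding, defence and flower fertility, and methyl esterases can turn the ester back into the acid. The substrate of AT5G38780 is not named in the annotation used here.

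Seeds of the natural accessions Col-0 and C24, both unmodified and untreated, were dissected from siliques at 8-9, 10-11 and 12-13 days after flower opening from plants grown under long days. Each of the 6 combinations of accession and stage had 3 pools of seeds, so 18 arrays (Affymetrix ATH1) were analysed, each holding whole seeds with embryo, endosperm and seed coat together. Pools of 1 group may share plants, so the spread between arrays is that between pools. In such bulk samples, fewer cells of a type and less RNA per cell cannot be told apart, and a lower transcript level in C24 cannot be told apart from weaker binding of C24 transcripts to the array's probes. Array medians lay between 5.84 and 5.96 on the log2 scale, arrays of the same group correlated at r = 0.993 to 0.997 over all tested probe sets, and arrays of different groups at 0.882 to 0.985. In all 18 samples the label for the RNA source carries the other accession, while the title, the description and the genotype field agree among themselves and set the groups here. If the source label were the correct one, the accessions would be exchanged throughout and every difference between them would change sign.

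JMT was high in early seeds and low by 12-13 days in both accessions, and most of the fall in signal came before 10-11 days. In Col-0 its signal (RMA, log2) was 10.32, 10.53 and 10.54 on the 3 arrays at 8-9 days. It was 5.78, 6.02 and 5.25 at 10-11 days, and 4.17, 4.02 and 3.93 at 12-13 days. Every Col-0 array at one stage lay below every Col-0 array at the stage before. In C24 the signal was 9.45, 9.33 and 9.74 at 8-9 days. The C24 arrays at 10-11 days read 5.68, 4.71 and 4.77, and those at 12-13 days 3.93, 4.23 and 4.02. C24 also showed no overlap between successive stages, and its first array at 10-11 days stood nearly 1 log2 unit above the other two.

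**Figure D1:**
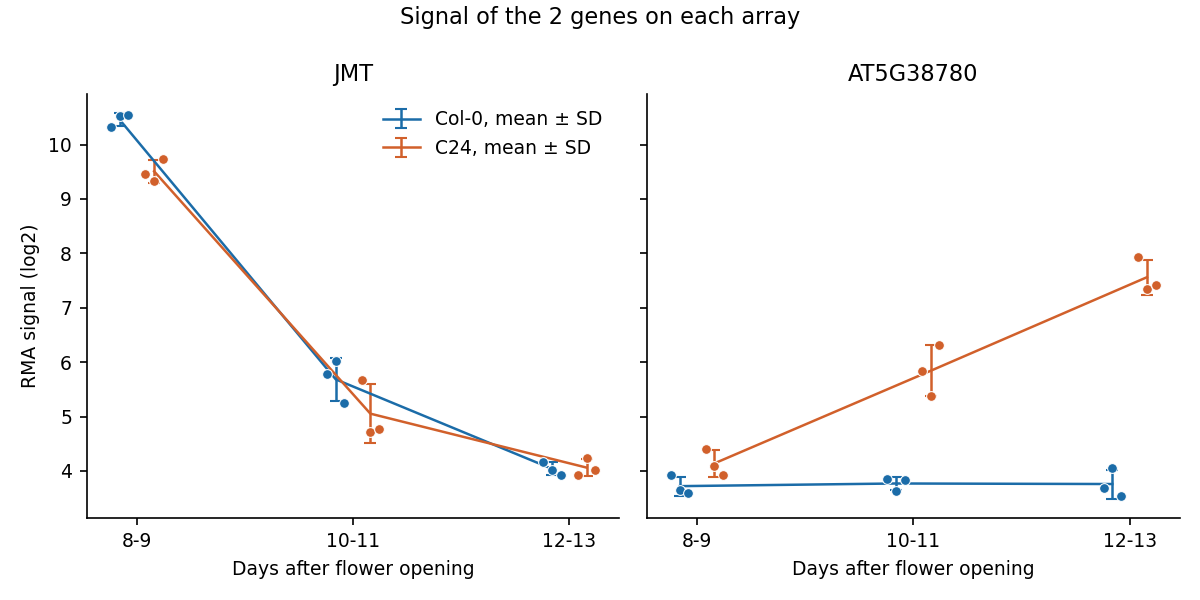
RMA signal (log2) of JMT (left) and AT5G38780 (right) against days after flower opening, with 1 point per array, lines through the group means and bars of ± 1 SD (n = 3) for Col-0 (blue) and C24 (orange). JMT falls from means of 10.46 and 9.51 to 4.04 and 4.06, while AT5G38780 stays between 3.72 and 3.77 in Col-0 and climbs from 4.14 to 7.56 in C24.

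Over the whole interval the JMT mean went from 10.46 ± 0.12 (SD, n = 3) to 4.04 ± 0.12 in Col-0, a difference of -6.42 ± 0.20 (SE), or 85.8-fold. In C24 it went from 9.51 ± 0.21 to 4.06 ± 0.16, a difference of -5.45 ± 0.20, or 43.7-fold. These are the values on which JMT was selected, and in the same contrasts 27.6% of all probe sets were called lower in Col-0 and 27.5% in C24 (limma, Benjamini-Hochberg adjusted p under 0.05). The late signals lie at the low end of the arrays' range, where background makes up part of a signal, so these folds may understate the fall in transcript and are not compared between the accessions. The first step was 27.4-fold in Col-0 and 21.9-fold in C24. The second step, which ended at those low signals, was -1.64 log2 in Col-0 and -0.99 log2 in C24, with SE 0.20 each. Without the first C24 array at 10-11 days, the C24 steps were -4.77 and -0.68, so the size of the second step in C24 rested partly on that array.

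Ordered by mean, JMT was highest in Col-0 at 8-9 days, then in C24 at 8-9 days, 0.95 log2 lower with no overlap of arrays. Col-0 and C24 at 10-11 days followed, 0.63 apart against an SD of up to 0.54, and their arrays overlapped. C24 and Col-0 at 12-13 days came last and differed by 0.02, within their spread. Both late groups lay under each array's lower quartile over all probe sets, 4.24 to 4.39, and the deposited values carry no detection calls, so no order is read among signals at that level.

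AT5G38780 stayed low in Col-0 at all 3 stages, and in C24 it was higher at each stage than at the one before. In Col-0 its signal was 3.92, 3.66 and 3.58 at 8-9 days, 3.85, 3.63 and 3.83 at 10-11 days, and 3.69, 4.05 and 3.53 at 12-13 days. The 3 Col-0 groups overlapped and all 9 arrays read under their array's lower quartile. In C24 the arrays read 4.40, 4.09 and 3.92 at 8-9 days and 5.84, 5.38 and 6.31 at 10-11 days. At 12-13 days they read 7.93, 7.34 and 7.41. Each C24 stage lay above the one before without overlap.

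The C24 mean of AT5G38780 went from 4.14 ± 0.24 (SD, n = 3) to 5.84 ± 0.47 and then 7.56 ± 0.32. The steps were of like size, 1.70 and 1.72 log2 (SE 0.19 each), or 3.25-fold and 3.29-fold in a whole rise of 10.7-fold; the first step started near the arrays' lower quartile, so its fold may be understated. In Col-0 the whole change was 0.04 ± 0.19 (SE). Among all probe sets 26.2% were called higher over the same interval in C24 and 26.6% in Col-0. In the order of its levels, C24 at 12-13 days stood first and C24 at 10-11 days after it, each clear of all other groups. The C24 arrays at 8-9 days and the 3 Col-0 groups came last, near or under the arrays' lower quartile, and no order is read among them. C24 at 8-9 days had a mean 0.42 log2 above Col-0 at that stage, but its lowest array, at 3.92, equalled the highest Col-0 array of that stage to 2 decimals and lay below a Col-0 array of 12-13 days, at 4.05.

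The study set the accessions against each other at each stage. At 10-11 days both genes differed between them, in opposite directions. JMT was 1.55-fold lower in C24, with a log2 difference of -0.63 (95% interval -1.05 to -0.21; limma adjusted p = 0.0333), and in this contrast 7.99% of probe sets were called lower. One C24 array, at 5.68, lay among the Col-0 arrays, and the other 2 lay below all of them. AT5G38780 was 4.21-fold higher in C24, with a log2 difference of 2.07 (95% interval 1.67 to 2.47; limma adjusted p = 8.51e-08), and 9.92% of probe sets were called higher. All 3 C24 arrays exceeded all 3 Col-0 arrays. Both p-values rest on arrays that also entered contrasts in which these genes ranked near the top or bottom, so they too are descriptions.

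The JMT call at 10-11 days was lost with a variance prior that follows the signal level (adjusted p = 0.0564) and when only the arrays of that stage entered the fit (0.0963). It was also lost without Col-0 array 1, without Col-0 array 2, without C24 array 2 and without C24 array 3 of that stage (adjusted p = 0.111, 0.184, 0.187 and 0.150), while the AT5G38780 call held in each of these fits.

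At the other stages the differences are descriptions without a p-value. JMT in C24 was 1.93-fold lower at 8-9 days (log2 difference -0.95 ± 0.20, SE), where 7.7% of probe sets were called lower, and AT5G38780 was 1.34-fold higher, where 11.7% were called higher. At 12-13 days the JMT difference was 0.02 ± 0.20 with overlapping arrays, and AT5G38780 was 13.9-fold higher in C24 (log2 difference 3.80 ± 0.19), in a contrast with 12.2% of probe sets called higher and 9.79% lower. In signal, the accession difference in AT5G38780 thus was larger at each later stage. All its Col-0 arrays read under the lower quartile, so this follows the C24 signal and the folds may be understated. For JMT the differences at 8-9 and 10-11 days were 0.32 ± 0.28 apart, and 0.01 apart without C24 array 1 at 10-11 days, and the one at 12-13 days compares signals under the lower quartile, so no trend is read from them. The change from 8-9 to 12-13 days differed between the accessions by 0.97 ± 0.28 for JMT and 3.38 ± 0.27 for AT5G38780, of which the JMT value follows from the difference at 8-9 days and low signals in both accessions at 12-13 days, in a contrast where higher calls made up 3.96% of probe sets and lower calls 5.19%.

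**Figure D2:**
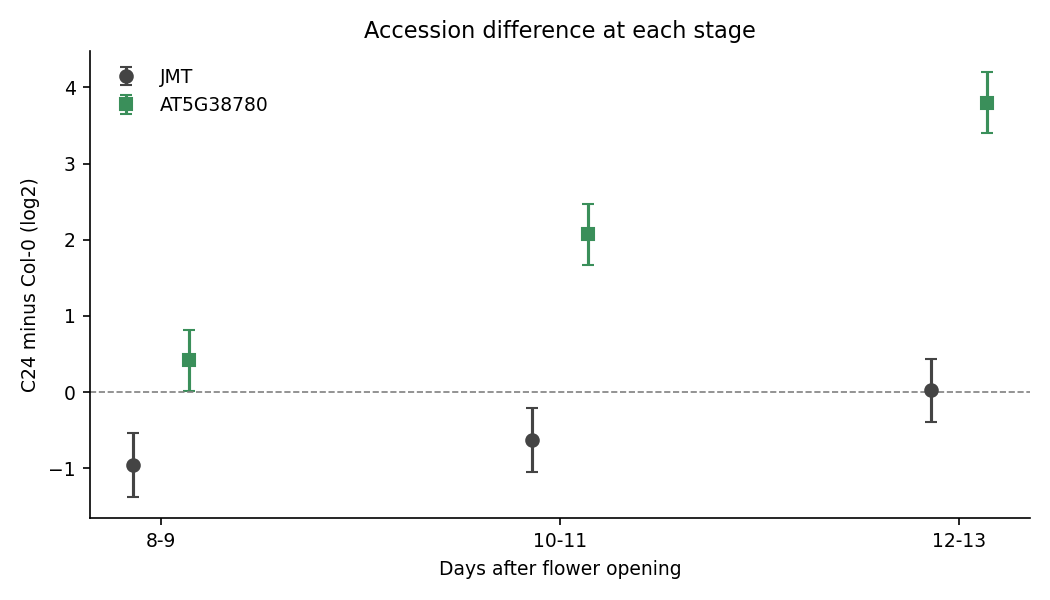
Difference between C24 and Col-0 (log2, C24 minus Col-0) at each stage for JMT (circles) and AT5G38780 (squares), with bars of the 95% interval and a dashed line at 0. The JMT difference runs from -0.95 to 0.02 and the AT5G38780 difference from 0.42 to 3.80.

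The share of higher calls among all calls depended on the scaling. It was 49.2% over the whole interval in Col-0 and 48.8% in C24, and became 71.7% and 61.9% when arrays were scaled to 11 measured reference genes. At 12-13 days between accessions it went from 55.5% to 36.9%, and for the accession difference in the whole change from 43.3% to 22.5%. That scaling moved all values by 0.21, 0.11, -0.07 and -0.11 log2 in these 4 contrasts, small beside the changes of JMT and of AT5G38780 in C24.

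Of the 22 other SABATH genes listed, 14 were measured and 8 were not analysed here. From 8-9 to 12-13 days 5 of the 14 rose and none fell in Col-0 (median 0.14 log2 against 0.02 over all probe sets), beside 26.6% of all probe sets with a higher call and 27.6% with a lower one. In C24 6 of the 14 rose and none fell (median 0.28 against 0.04), beside 26.2% and 27.5% of all probe sets. With 14 genes, these counts of higher calls are read as no more than near the background. AT5G38020 came nearest to a call in the direction of JMT, at -0.26 in Col-0 (adjusted p = 0.0947), and was called lower after normalizing again (0.0338) and without C24 array 3 at 8-9 days (0.0347).

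AT5G04380 had the largest change of the 14, with mean signals of 4.30, 8.00 and 9.34 at the successive stages in Col-0 and 5.34, 8.72 and 9.86 in C24. Col-0 seeds gained 5.04 ± 0.18 log2 (SE; adjusted p = 9.62e-16) and C24 seeds 4.52 ± 0.18 (6.38e-15). NAMT1, a nicotinate methyltransferase gene, is its immediate neighbour in the annotation with 0 loci between them. NAMT1 had mean signals of 3.60, 4.88 and 6.36 in Col-0 and 3.62, 5.33 and 6.85 in C24, a rise of 2.75 ± 0.13 and 3.23 ± 0.13. Both neighbours therefore rose in both accessions, whereas AT5G38780 separated by stage in C24 alone.

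AT2G14060 came closest to AT5G38780 in differing by accession. In Col-0 its mean went from 4.34 to 5.73, in C24 from 4.16 to 6.62, and its rise was 1.06 ± 0.23 log2 larger in C24 (adjusted p = 0.00408), the single call of the 14 in that contrast (median 0.12). The smaller rises were those of AT1G66720, at 0.61 in Col-0 and 0.53 in C24, AT5G37990, at 0.37 in each, and AT5G66430, at 0.56 in C24. The C24 call of AT1G66720 was lost without C24 array 1 at 8-9 days or array 3 at 12-13 days (adjusted p = 0.0668 and 0.0679), and that of AT5G37990 without C24 array 2 at 8-9 days (0.0728). BSMT1, which makes methyl salicylate and methyl benzoate, read between 3.64 and 3.83 in every group and was not called in any of the 6 contrasts counted.

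**Figure D3:**
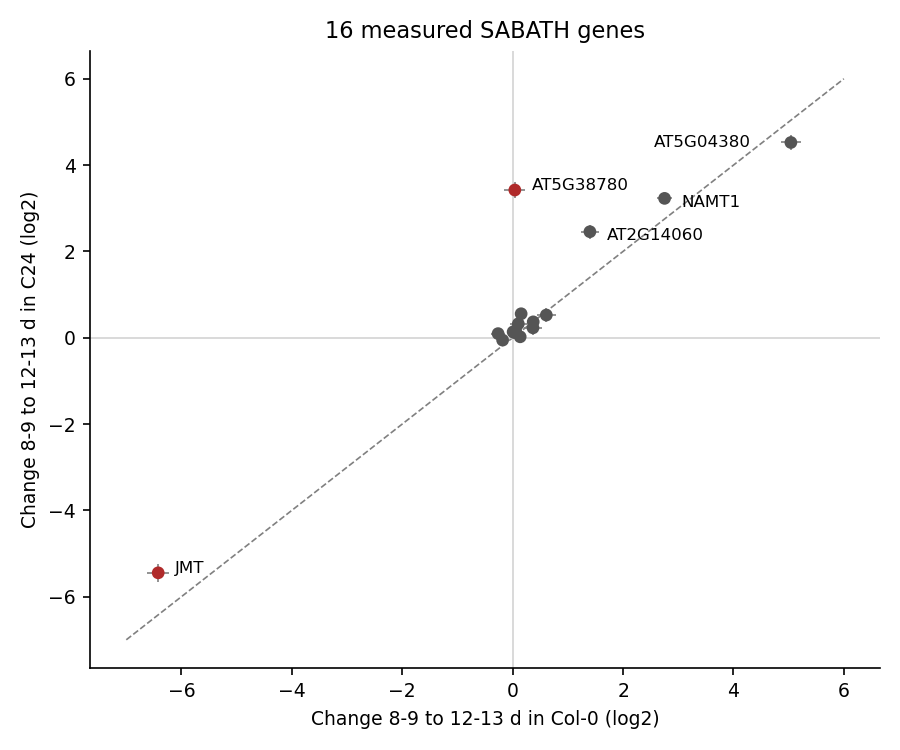
Change from 8-9 to 12-13 days (log2) in C24 against that in Col-0 for 16 measured SABATH genes, with bars of ± SE, a dashed line of equal change, and JMT and AT5G38780 in red. JMT stands alone at the lower left (-6.42 and -5.45), AT5G38780 lies far above the line (0.04 and 3.42), and AT5G04380, NAMT1 and AT2G14060 lie along the upper right.

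Between accessions, 1 of the 14 was higher in C24 at 8-9 days, 2 at 10-11 days and 4 at 12-13 days, and none was lower (medians -0.08, 0.13 and 0.10), where 11.7%, 9.92% and 12.2% of all probe sets were called higher. The counts at 8-9 and 10-11 days are about the background share. AT5G04380 was the one called at all stages, by 1.03, 0.72 and 0.52 log2. NAMT1 was higher by 0.45 at 10-11 days and 0.49 at 12-13 days, and at 12-13 days AT2G14060 was higher by 0.88 and AT5G66430 by 0.35. At 10-11 days the calls of AT5G04380 and NAMT1 were both lost without Col-0 array 2 (adjusted p = 0.0569 and 0.180), that of NAMT1 also without C24 array 2 or 3 (0.0921 and 0.0973). At 12-13 days that of AT5G04380 was lost under 3 alternatives, scaling to reference genes among them (0.0795), and without Col-0 array 1 or 2 or C24 array 1 or 3 (0.0665 to 0.140). Those of NAMT1 at 12-13 days, without Col-0 or C24 array 3, and of AT5G66430, without Col-0 or C24 array 1, were lost at 0.0502 to 0.0648. The AT5G66430 call was lost with reference gene scaling as well (0.0612), and that of NAMT1 at 10-11 days with only the groups compared (0.0646). AT5G37970, AT5G37990, AT5G38020 and AT5G38100 lie on the same chromosome as AT5G38780, with 128 loci between the first of them and AT5G38780. None of those 4 was called between accessions at any stage.

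Of 20 genes listed under jasmonate synthesis 4 were measured in this sense, and the others were not matched and not analysed here. None of the 4 had a change as large as that of JMT. OPCL1, the CoA ligase that prepares OPC-8:0 for beta-oxidation, rose by 0.82 ± 0.10 log2 (SE; adjusted p = 4.65e-07) in Col-0 and, less, by 0.39 ± 0.10 (0.00248) in C24. AIM1, a multifunctional enzyme of peroxisomal beta-oxidation, fell by 0.45 in Col-0, and in C24 it fell by 0.92 (SE 0.09 each). AT1G70480, for which the annotation used here names no role, rose by 0.40 in Col-0 and was 0.45 lower in C24 at 12-13 days. DGL, a plastid lipase gene, rose by 0.33 in C24 and was 0.49 higher there at 12-13 days; the rise was not called without C24 array 1 at 8-9 days or array 3 at 12-13 days (adjusted p = 0.0801 and 0.0571). In counts, 2 of the 4 rose and 1 fell in each accession (medians 0.16 and 0.22), which with 4 genes cannot be set apart from the 26.6% and 26.2% of all probe sets called higher. Between accessions OPCL1 and AIM1 were higher in C24 at 8-9 days (0.30 and 0.28), beside 11.7% of all probe sets. Leaving out any of several arrays of that stage ended these calls (0.0506 to 0.122). That of OPCL1 was also lost after normalizing again (0.114). None of the 4 was called at 10-11 days. At 12-13 days 1 was higher and 1 lower, beside 12.2% and 9.79% of all probe sets. AIM1 alone differed in its whole change, by -0.47 (adjusted p = 0.0151).

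Of 20 genes listed under conjugation, turnover and ester cleavage 4 were measured. Of these 2 rose and 1 fell in each accession (medians 0.22 and 0.25). Over that interval 26.6% of all probe sets were called higher in Col-0 and 26.2% in C24, and 27.6% and 27.5% lower. AT5G05600 rose most, by 2.94 ± 0.15 log2 in Col-0, where its mean reached 8.40 from 5.46. In C24 its mean reached 7.89 from 6.27, a rise of 1.62 ± 0.15. Its accession difference turned over, at 0.81 higher in C24 at 8-9 days, 0.54 higher at 10-11 days and -0.50 at 12-13 days, and its change differed by -1.32 (adjusted p = 0.000205). Its calls at 10-11 and 12-13 days were each lost without Col-0 array 2 or C24 array 2 of that stage (0.0520 to 0.0961). AT3G11180 fell by 0.84 in Col-0, and in C24 it fell by 1.01. JRG21, named as a jasmonate-regulated gene, rose by 0.38 in Col-0, and AT2G38240 rose by 0.28 in C24. The first call was lost without Col-0 array 1 at 8-9 days or array 2 at 12-13 days (0.0554 and 0.0915), and the second without C24 array 1 at 8-9 days or array 1 or 3 at 12-13 days (0.0724 to 0.180). The AT2G38240 call was also lost with the variance prior that follows the signal level (0.0504). None of the conjugation or methyl esterase genes of that list was among the 4 measured.

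Perception and signalling were represented by 2 of 25 listed genes, the transcription factor genes MYC3 and MYC4. MYC3 fell by 0.28 in C24 and was 0.32 lower there than in Col-0 at 12-13 days (adjusted p = 0.0255 and 0.0262), and the fall in C24 was lost under scaling to reference genes (0.190). Both calls were lost without C24 array 1 or 2 at 12-13 days, the fall also without C24 array 2 at 8-9 days and the difference without Col-0 array 1 at 12-13 days (0.0602 to 0.109). MYC4 was not called in the 6 contrasts, with means of 3.76 to 4.08.

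Of 8 genes known to respond to jasmonate 3 were measured. THI2.1, a thionin gene, went from 6.81 to 4.91 and 5.02 in Col-0, a fall that came before 10-11 days. Most of the JMT fall lay there too, but JMT fell further after 10-11 days. In C24 it went from 5.50 to 4.88 and 4.89. Its falls of -1.79 ± 0.19 and -0.61 ± 0.19 log2 both passed the test (adjusted p = 4.13e-08 and 0.00891), the C24 one not without C24 array 3 at 8-9 days (0.0556). At 8-9 days THI2.1 was 1.31 lower in C24 (adjusted p = 2.59e-05), where JMT was lower too. The defensin gene PDF1.2b, measured by a probe set marked as able to bind related transcripts, rose by 1.07 ± 0.09 in C24 and was 0.84 higher there at 12-13 days, but was not called over the interval in Col-0 (0.13 log2). PDF1.2 was not called, with means of 3.62 to 3.89. The change from 8-9 to 12-13 days differed between accessions for THI2.1 by 1.18 and for PDF1.2b by 0.94 (adjusted p = 0.00597 and 6.28e-05). Of the 10 listed genes of the methyl donor cycle, 0 could be matched to a probe set with 1 gene, so that cycle was not analysed here.

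**Figure D4:**
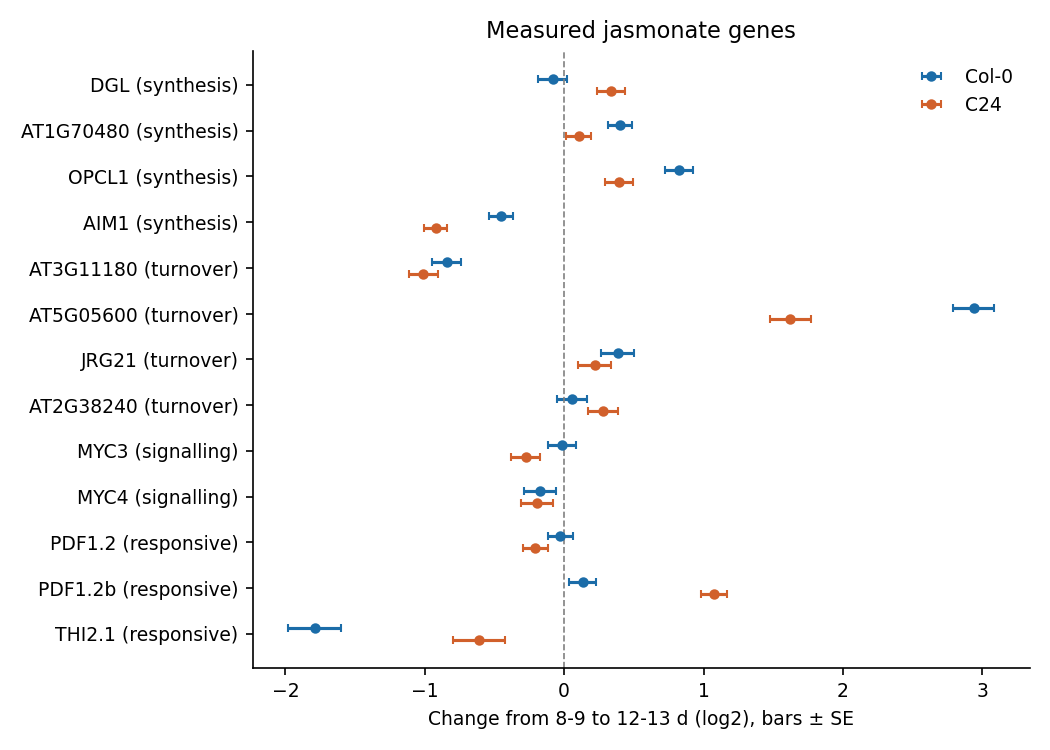
Change from 8-9 to 12-13 days (log2, points with bars of ± SE) in Col-0 (blue) and C24 (orange) for 13 measured genes listed under jasmonate synthesis, turnover, signalling and response. AT5G05600 shows the largest rise (2.94 in Col-0) and THI2.1 the largest fall (-1.79 in Col-0).

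JMT fell beside markers of the seed coat and endosperm, and embryo markers rose. Of 11 listed seed coat markers 4 were measured, BAN and DFR of flavonoid synthesis, the peroxidase gene AT3G50990 and the subtilase gene ARA12. All 4 fell in both accessions, beside 27.6% of all probe sets called lower in Col-0 and 27.5% in C24. The mean signal of the 4 was 10.73 to 10.81 on the Col-0 arrays at 8-9 days and 7.60 to 7.87 at 12-13 days. In C24 it was 9.69 to 10.03 and 7.80 to 7.92. At 8-9 days 3 of these 4 were lower in C24, as JMT was, beside 7.7% of all probe sets. AT3G50990 differed most, by -2.14, and ARA12 was not called (-0.23). At 10-11 days none of the 4 was called between accessions, and at 12-13 days BAN was 0.74 higher in C24 (adjusted p = 0.00369). The change over the whole interval was less negative in C24 for BAN by 1.54, for DFR by 0.69 and for AT3G50990 by 2.09 (adjusted p = 0.000238, 0.00189 and 1.94e-06), the direction that the JMT value of 0.97 has. ARA12 differed by 0.20 and was not called, and 3.96% of all probe sets were called higher in that contrast. Whether the amount of seed coat RNA has a part in the JMT values was not tested.

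Of 9 endosperm markers 3 were measured. In Col-0 GH9C1 fell by 3.98 log2 and AT1G71250 fell by 2.52, in C24 they changed by -3.57 and -2.82, while AGL62 read 3.26 to 3.45 throughout. The mean endosperm signal was 8.21 to 8.33 on the Col-0 arrays at 8-9 days and 6.07 to 6.22 at 12-13 days, and 7.74 to 7.91 and 5.57 to 5.77 in C24. Lower in C24 were 2 of the 3 at 8-9 days, 1 at 10-11 days and 2 at 12-13 days. Of all probe sets 7.7%, 7.99% and 9.79% were called lower at these stages. The part of these endosperm marker calls in the JMT difference was not tested. Of these calls, that of AT1G71250 at 8-9 days was lost without Col-0 array 2 or 3 or C24 array 1 of that stage (adjusted p 0.0523 to 0.0860), and that of GH9C1 at 12-13 days without Col-0 array 3 or C24 array 2 of that stage (0.0554 and 0.0589), which leaves 1 of the 3 at either stage.

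All 3 measured embryo and maturation markers of 10 listed rose in both accessions, beside 26.6% (Col-0) and 26.2% (C24) of all probe sets. Their mean went from 7.72 to 8.77 at 8-9 days to 12.03 to 12.06 at 12-13 days over the Col-0 arrays, and from 8.82 to 9.48 to 12.03 to 12.10 in C24. At 8-9 days 2 of the 3 were higher in C24, beside 11.7% of all probe sets. These were AT1G03890 by 1.83 (adjusted p = 0.000405) and PAP85 by 0.39 (0.0250). The PAP85 call was lost with only the groups compared (0.112) and without Col-0 array 2 or C24 array 1 or 2 of that stage (0.0939 to 0.197). At 10-11 and 12-13 days none of the 3 was called between accessions. The change of AT1G03890 differed by -1.73 (0.0237), a call lost under 2 alternatives (0.102 and 0.0576) and without C24 array 1 or 2 at 8-9 days (0.0587 and 0.0634). The part of embryo RNA in the AT5G38780 values was not tested. Tissues outside the seed were covered by few markers. The silique wall marker ALC, the 1 measured of 4, fell by 0.58 in C24 (not without C24 array 1 at 8-9 days, adjusted p = 0.0587), and neither it nor the nectary marker SWEET9 (1 of 4) nor the 2 measured pollen markers of 4 were called between accessions. The pollen marker AT3G28750 fell by 0.25 in C24 (adjusted p = 0.0480), a call lost with the replicate numbers as a block (0.0542) and in most of the fits that left out 1 array.

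RNA integrity controls also moved with the groups. The log2 difference between 3′ and 5′ actin control probe sets was 1.84, 1.29 and 0.93 over the stages in Col-0 and 0.85, 0.43 and -0.28 in C24. For GAPDH it rose over the stages in Col-0, from 0.89 to 1.77, and was 0.94, 1.44 and 1.19 in C24. For ubiquitin it was 0.88, 0.52 and 0.44 in Col-0 and 0.94, 0.91 and 0.77 in C24. The controls thus moved in different directions, and their part in the values of JMT and AT5G38780 was not tested. Among the 11 measured reference genes of 22 listed, 4 fell over the interval in Col-0 and 3 did so in C24. Of all probe sets 27.6% and 27.5% were called lower there. AT2G32170 was lower in C24 at all 3 stages. At 12-13 days GAPC2 was 0.58 higher in C24 (limma adjusted p = 7.53e-05) and AT4G26410 0.26 higher (0.0202), beside 12.2% of all probe sets called higher. The AT4G26410 call was lost with only the groups compared (0.0758). The change of GAPC2 over the interval differed by 0.55 (0.00868). Scaling to reference genes used the mean of all 11, these included.

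Among 2789 probe sets with 1 gene and group means spanning at least 1 log2 unit, those most alike to JMT over the 6 group means were AT2G46420 (Pearson r = 0.99916), PRL (0.99915), TUB1 (0.99905), AT1G70280 (0.99865) and AT2G41950 (0.99831). PRL encodes MCM7, a subunit of the replicative helicase, and TUB1 a beta-tubulin. These profiles had the shape of that of JMT but a smaller span: PRL differed by -3.01 log2 over the interval in Col-0 and -2.74 in C24, and TUB1 by -1.60 and -1.39. The 6 points share arrays and stages, and many genes fell with age, so the r values only describe likeness.

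For AT5G38780 the most alike were AT1G27930 (r = 0.9985), IRX15 (0.99029), AT5G18340 (0.99012), JAL23 (0.98275) and AT3G22104 (0.97854). IRX15, needed for normal xylan in secondary cell walls, changed by 2.23 log2 in C24 and -0.09 in Col-0. The other 4 changed by 0.81 to 1.02 in C24 and by 0.03 to 0.27 in Col-0. The 5 were picked for their likeness to AT5G38780, so a late separation by accession follows from that choice. IRX15 was 2.25 log2 higher in C24 at 12-13 days, and all 5 had a smaller span than AT5G38780.

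**Figure D5:**
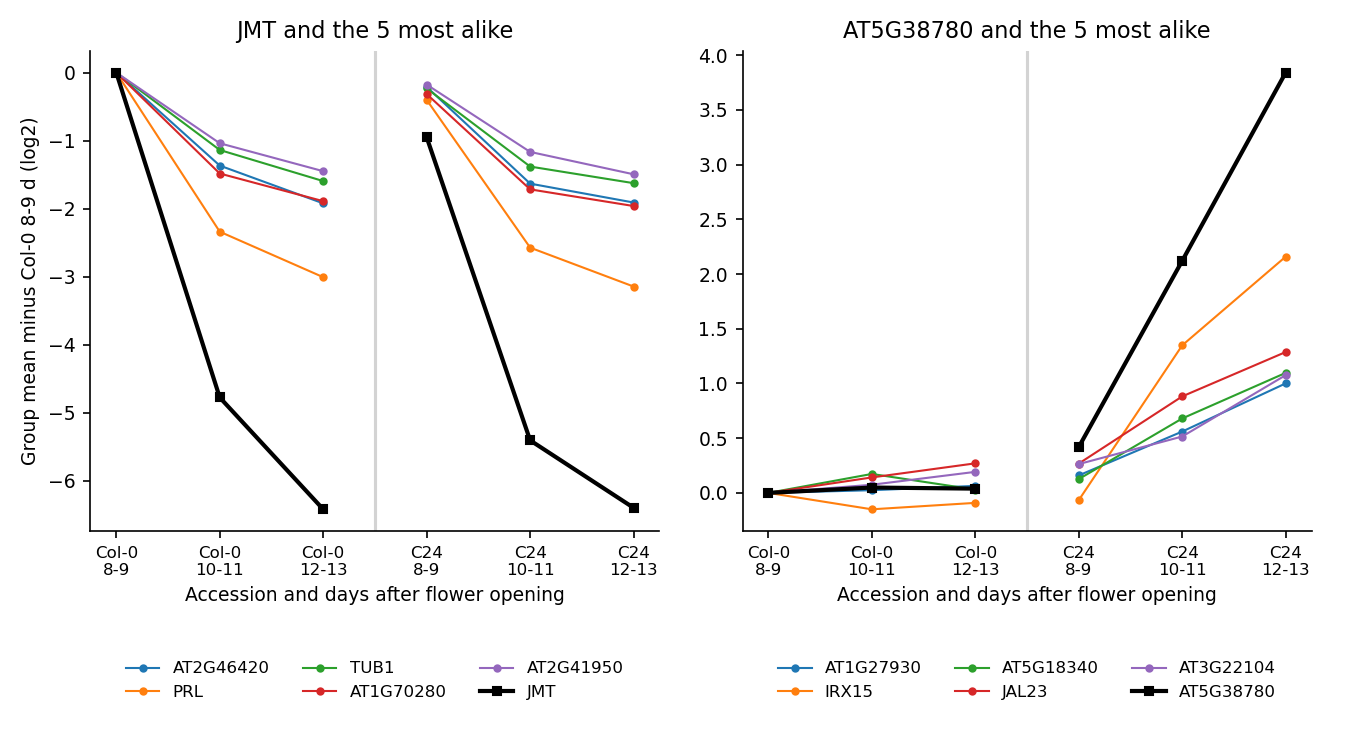
Group means minus the Col-0 mean at 8-9 days (log2) over the 6 groups for JMT (left, black) and AT5G38780 (right, black), each with the 5 genes of most similar profile. The coloured curves keep the shape of the black one over a smaller range, the widest being PRL with JMT and IRX15 with AT5G38780.

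The genes on either side were measured for 6 of the 10 nearest loci of JMT and for 3 of 10 of AT5G38780, and none had a change like that of the gene beside it. Around JMT, AT1G19600 fell by 0.54 in Col-0, and in C24 it fell by 0.41. AT1G19680 rose by 0.32 and 0.34 in the same order, the Col-0 call being lost without Col-0 array 2 at 12-13 days (adjusted p = 0.0549). The defensin-like gene PDF1.4 rose by 0.39 in Col-0, where AT1G19650 fell by 0.25, both calls that leaving out single Col-0 arrays ended, as did fitting only the groups compared (adjusted p = 0.0643 and 0.0539). The AT1G19650 fall was -0.04 with reference gene scaling (0.710) and was not called after normalizing again (0.0791). AT1G19650 was higher in C24 by 0.27 at 10-11 days and by 0.49 at 12-13 days, opposite to JMT at 10-11 days, where its call was lost in most of the fits that left out 1 array; AT1G19620 and AT1G19690 were not called. Around AT5G38780, the transcription factor gene bZIP43 rose, by 0.71 in Col-0 and by 0.51 in C24, as did AT5G38760, by 0.28 and 0.23 (the latter not without C24 array 2 at 8-9 days or array 3 at 12-13 days, 0.103 and 0.0707). The AT5G38760 call in C24 was also lost after normalizing again (0.0938). No measured neighbour of AT5G38780 was called between accessions, against the 4.21-fold difference of AT5G38780 itself at 10-11 days.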

How the data were processed

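Transcripts of 18 seed pools were measured on Affymetrix arrays. The authors deposited 1 log2 value per probe set and array, made with RMA per the submitters' processing notes, which give no version; RMA corrects background, equalizes array distributions and summarizes probes, so values of different probe sets were not compared as levels. Of 22810 probe sets, 64 controls were left out. The platform's gene table names 1 gene for 13513 probe sets, several for 503, and does not list 8730, which are unnamed here. The genes and lists were chosen with earlier results of these data known. Named were the 2 genes, list genes called or alone in their list, the 5 most alike genes and the 5 loci on each side. limma 3.58.1 (R 4.3.3) fitted 6 group means with 13 contrasts and eBayes, with Benjamini-Hochberg adjustment over 22746 probe sets and a threshold of 0.05. The fit was tested on simulated data. The main fit did not treat replicate numbers as pairing the samples. Alternatives were another normalization, reference gene scaling, a dim filter, a replicate block, another variance prior, fewer groups and each array left out. No sequences are shown.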

Additional observations from a re-analysis of the deposited data

Results flagged for a closer look

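The change of JMT from 8-9 to 12-13 days had a difference between the accessions of 0.97 log2 (C24 minus Col-0), which mostly restates the difference of 0.95 at 8-9 days, because both accessions read under the arrays' lower quartile at 12-13 days. The seed coat markers BAN, DFR and AT3G50990 differed in the same direction, by 1.54, 0.69 and 2.09. ARA12, the other seed coat marker measured, differed by 0.20 and was not called. The part of these markers in the JMT value was not tested. For AT5G38780 the changes differed by 1.65 over the first step, 1.73 over the second and 3.38 over the whole interval, with the 3 C24 groups moving upwards without overlap and the Col-0 groups overlapping. These differences between accessions drew attention, and no p-value is given for them because the genes were chosen on contrasts that share these arrays.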

How the results depend on the processing

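Of 611 values recomputed for JMT and AT5G38780, 47 carry an adjusted p-value (10-11 days between accessions). Of these 6 lost the call, and 4 of the others moved beyond the spread between arrays. Many of the 611 could not move. The replicate block, the other prior, the filter and fewer groups leave a difference as it is, as does leaving out an array outside the contrast. Values without a p-value were judged by the difference alone, so the small count of changes is no measure of robustness. The sign changed in 12, all of differences within 0.05 of 0: JMT between accessions at 12-13 days (-0.06 to -0.03) and the AT5G38780 changes in Col-0 (-0.11 to 0.10). The JMT difference at 10-11 days stayed at -0.63 but missed the threshold with the trended, robust prior and with only the groups compared; leaving out each array gave -0.94 to -0.46 (adjusted p 0.000495 to 0.187). The replicate block left both 10-11 day calls in place (JMT -0.63, adjusted p = 0.0371; AT5G38780 2.07, 1.36e-07); over 45 same-number pairs the correlation of deviations had a median of 0.03, and 10 exceeded 0.1. Among the other named genes the block ended the call of AT3G28750 in C24 (0.0542). For AT5G38780, leaving out arrays gave 1.84 to 2.31 at 10-11 days. Leaving out each array gave JMT steps in C24 of -4.77 to -4.28 and -1.16 to -0.68, and accession differences in the steps of 0.0097 to 0.49 and 0.48 to 0.96, 1 end of each range being without C24 array 1 and the other without C24 array 2 at 10-11 days.

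With reference gene scaling, higher calls numbered 11312 over the interval in Col-0, 1755 between accessions at 12-13 days and 546 for the difference in change, with 1884 lower, against 6060, 2781, 900 and 1180. Testing only the 11373 probe sets above the median, which left out AT5G38780, gave 3895 higher in Col-0 and 3556 in C24 (5954 otherwise). Counts of other SABATH genes called higher became 10 with scaling and 1 with the filter in Col-0, 1 with the filter in C24, 1 at 10-11 days with the filter and with only the groups compared, 2 with scaling and 1 with the filter at 12-13 days, and, for the difference in change, 0 with the filter and 2 with the other prior and with only the groups compared. One was lower in Col-0 after normalizing again (1). Leaving out arrays gave 0 to 1 lower in Col-0, and higher counts of 0 to 2 at 10-11 days, 2 to 4 at 12-13 days and 1 to 2 for the difference in change. Of 140 called values of the other named genes, 105 held under all alternatives. The cause of these changes was not tested, except that the filter tests fewer genes. With 3 arrays a group, and signals near the arrays' lower quartile without detection calls, low levels carry no order.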
